A study of Mus musculus with 26 samples.

Results

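Interferon-stimulated genes are the genes that a cell switches on when interferon binds its receptors, and 33 of them were followed here through the maturation of CD8 T cells in the thymus. The 33 genes were taken by symbol from the 46517 gene symbols of the deposited table, and all 33 passed the filter on low values that left 16372 genes for testing. Values were RNA-seq normalized counts of sorted thymocytes from 3 TCR transgenic (TCRtg) lines, in which nearly every developing T cell is meant to carry 1 known TCR. TG6 mice (TG6tg with H2b/d, from a cross of C57/BL6 with B6.C-H2d/bByJ) carry a TCR of low self-reactivity, F5 mice (F5tg Rag1KO, strain C57/BL6) one of intermediate self-reactivity, and OT-1 mice (OT-1tg Rag2KO, strain C57/BL6) one of high self-reactivity. From each line the sorted cells were CD4+CD8+CXCR4+CCR7- for early positive selection and CD4+CD8+CXCR4-CCR7+ for the late stage of it, while mature CD8SP cells were sorted as CD4-CD8+CXCR4-CCR7+. The 3 stages gave 3 libraries per group from 3 mice per line, and TG6 late positive selection had 2. The labels name no treatment and no age, and the study's methods put mice outside its neonatal experiments at 3 to 10 weeks of age.

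Rag deficiency, which stops a thymocyte from rearranging a TCR of its own, was shared by F5 and OT-1 but not by TG6. TG6 also differed in MHC haplotype and strain. A difference between TG6 and another line therefore belongs to the line as a whole, and TCR, Rag status, MHC haplotype, strain and any difference in housing cannot be told apart. F5 and OT-1 share the strain label and the lack of rearrangement, but the deleted Rag gene differs. In the paper the OT-1 mice came from Taconic, whereas the F5 mice came from an earlier cross and were kept in house. For this pair too, TCR, Rag gene, source of the line and any difference in housing cannot be told apart.

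Type I interferons signal through the receptor chains encoded by Ifnar1 and Ifnar2 and the kinases Jak1 and Tyk2, which phosphorylate transcription factors of the STAT family. One of them, Stat2, works in a complex with Irf9 that binds the interferon-stimulated response element (ISRE) in target promoters, whereas interferon gamma acts mainly through STAT pairs on gamma-activated sites (GAS). The targets include sensors of viral RNA, enzymes and GTPases that block pathogens, and several factors of the pathway itself, such as Irf7 and Usp18, which feed back on it. In the healthy thymus, interferon made by epithelial and dendritic cells is known to act on maturing thymocytes.

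RefSeq promoter windows of 250 bases before to 50 bases after the transcription start were on hand for 25 of the 33 genes (30 windows, build GRCm38.p6). The ISRE core GAAANNGAAA, searched on both strands, was found in 16 of the 25 genes (64%) against 3.99% of 27025 genes with a window, and in 56.7% of the 30 windows against 3.44% of 32851. The letters TTCNNNGAA, a GAS core, stood in 8 of the 25 genes (32%) against 9.55% of all genes, and in 26.7% of their windows against 8.3% of all windows. Overlapping matches of the 2 motifs occurred in 1 window, that of Bst2. The 9 stretches of 80 bases below come from members with an ISRE match before the start and were chosen to cover the genes whose levels differed most and least between lines. Capitals mark the ISRE core, or the letters it gives when it lies on the opposite strand.

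Isg15 (chr4:156200840-156200919, minus strand): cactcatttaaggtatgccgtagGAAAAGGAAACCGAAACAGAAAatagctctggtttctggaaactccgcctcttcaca
Ifit1 (chr19:34640769-34640848, plus strand): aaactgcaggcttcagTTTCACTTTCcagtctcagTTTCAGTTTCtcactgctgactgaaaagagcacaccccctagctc
Ifit3 (chr19:34583372-34583451, plus strand): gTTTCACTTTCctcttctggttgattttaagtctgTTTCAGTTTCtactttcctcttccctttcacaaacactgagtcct
Oas1a (chr5:120907526-120907605, minus strand): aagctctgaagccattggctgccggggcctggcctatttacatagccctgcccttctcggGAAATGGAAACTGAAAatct
Rsad2 (chr12:26456528-26456607, minus strand): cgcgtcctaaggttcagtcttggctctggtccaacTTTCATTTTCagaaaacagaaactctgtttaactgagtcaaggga
Bst2 (chr8:71537552-71537631, minus strand): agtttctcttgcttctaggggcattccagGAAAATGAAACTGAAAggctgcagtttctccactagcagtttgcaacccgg
Irgm1 (chr11:48871421-48871500, minus strand): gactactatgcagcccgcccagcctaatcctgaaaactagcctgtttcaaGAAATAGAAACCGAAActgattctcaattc
Igtp (chr11:58199476-58199555, plus strand): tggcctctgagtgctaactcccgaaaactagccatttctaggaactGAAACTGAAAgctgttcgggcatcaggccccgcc
Stat2 (chr10:128270248-128270327, plus strand): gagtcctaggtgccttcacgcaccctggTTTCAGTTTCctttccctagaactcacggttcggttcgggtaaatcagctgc

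A match is a description of these letters and not evidence of binding. In mature CD8SP thymocytes the ratio of TG6 to F5 means had a median of 4.95 over the genes with an ISRE match (1.44 to 80.7) and 2.84 over the 9 genes with a window but no match (2.36 to 50.3), and these ranges overlapped almost wholly. Stat2 carries a match and had the lowest ratio, whereas Oasl2 has none in its window and had a ratio of 50.3.

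Totals of normalized counts per library lay between 16134786 and 18944173. In every library the transcripts of the sort followed the gate: Cd4 was at 7980 to 22730 in early positive selection and at 62.83 to 460.7 in mature CD8SP cells, and Ccr7 at 112.3 to 863.3 and 3958 to 12720. Transcripts that define other cells were present at low levels. Macrophage and conventional dendritic cell markers (9 genes) summed to 59.05 to 344.2 per library, B cell markers (4 genes) to 26.12 to 125.6, NK cell markers (3 genes) to at most 15.29, and the 5 thymic epithelial markers to 24.45 to 75.99, of which Foxn1 reached at most 0.979. Erythroid markers (4 genes) were higher, at up to 699.7 in OT-1, 308.8 in F5 and 194.6 in TG6 libraries, and their part in the differences between lines was not tested. The 5 plasmacytoid dendritic cell markers summed to 319 to 887.2, most of it Tcf4 and Irf8, and Siglech, the most specific of them, was at 19.23 to 73.46 in OT-1 early cells and at 0 to 15.26 elsewhere. One library stood apart: TG6 mature CD8SP replicate 3 kept transcripts of younger cells, with Rag1 at 5265 against 695.8 and 619.9, and Cd24a at 4540 against 904.8 and 814.

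As a first summary, the level of the 33 genes in a library was taken as the mean of log2(normalized count + 1) over the genes. In TG6 this mean was 7.89 ± 0.08 (SD, n = 3) at early positive selection, 9.83 ± 0.20 (n = 2) at late positive selection and 10.11 ± 0.44 (n = 3) in mature CD8SP cells. In OT-1 it was 8.22 ± 0.09, 9.51 ± 0.06 and 9.33 ± 0.14 (SD, n = 3 each). In F5 it was 7.10 ± 0.14, 7.15 ± 0.17 and 7.13 ± 0.17 (SD, n = 3 each). F5 libraries never rose above 7.28 and all lay below the lowest library of either other line, so the line of intermediate self-reactivity had the lowest levels. Because these are bulk samples, fewer expressing cells and less RNA per expressing cell cannot be told apart.

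**Figure D1:**
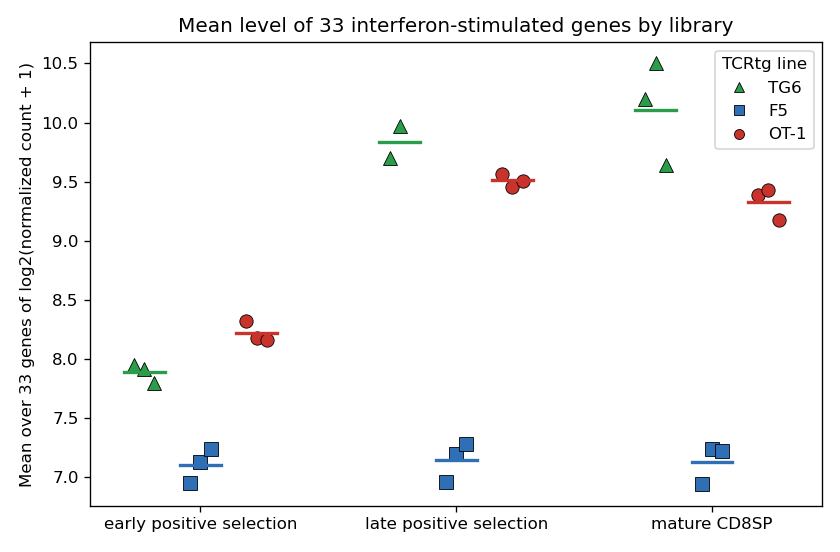
Mean over the 33 genes of log2(normalized count + 1), 1 point per library, by stage (x axis) and TCRtg line (colour and shape), with a bar at the group mean. The F5 libraries lie between 6.94 and 7.28 at every stage, below all TG6 and OT-1 libraries.

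The genes with the lowest F5 levels were at or near the limit of detection. Oas1a, an oligoadenylate synthetase that activates RNase L, was at 0, 0 and 0 in F5 early cells, 0, 1.004 and 0 in late cells and 2.02, 0 and 0 in mature cells. In OT-1 its values were 44.96, 37.15 and 25.64 early, 85.91, 75.36 and 106.5 late, and 75.08, 87.69 and 80.8 in mature cells. In TG6 they were 29.69, 16.9 and 27.1 early, 85.16 and 110.1 late, and 247.4, 295.7 and 183.5 in mature cells. No F5 library overlapped with one of another line, and Oas1a was the only one of the 33 genes at or under 3 in every F5 library. At the other end, compared per kilobase of exon, Ifi47 with 375, Irf1 with 333 and Igtp with 275 were the most abundant of the 33 genes in mature F5 cells, while Ifi27l2a with 3125 led in TG6 and with 2514 in OT-1. Ifi47 and Igtp are immunity-related GTPases, and Irf1 is a transcription factor that both interferons and TCR signals can induce.

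**Figure D2:**
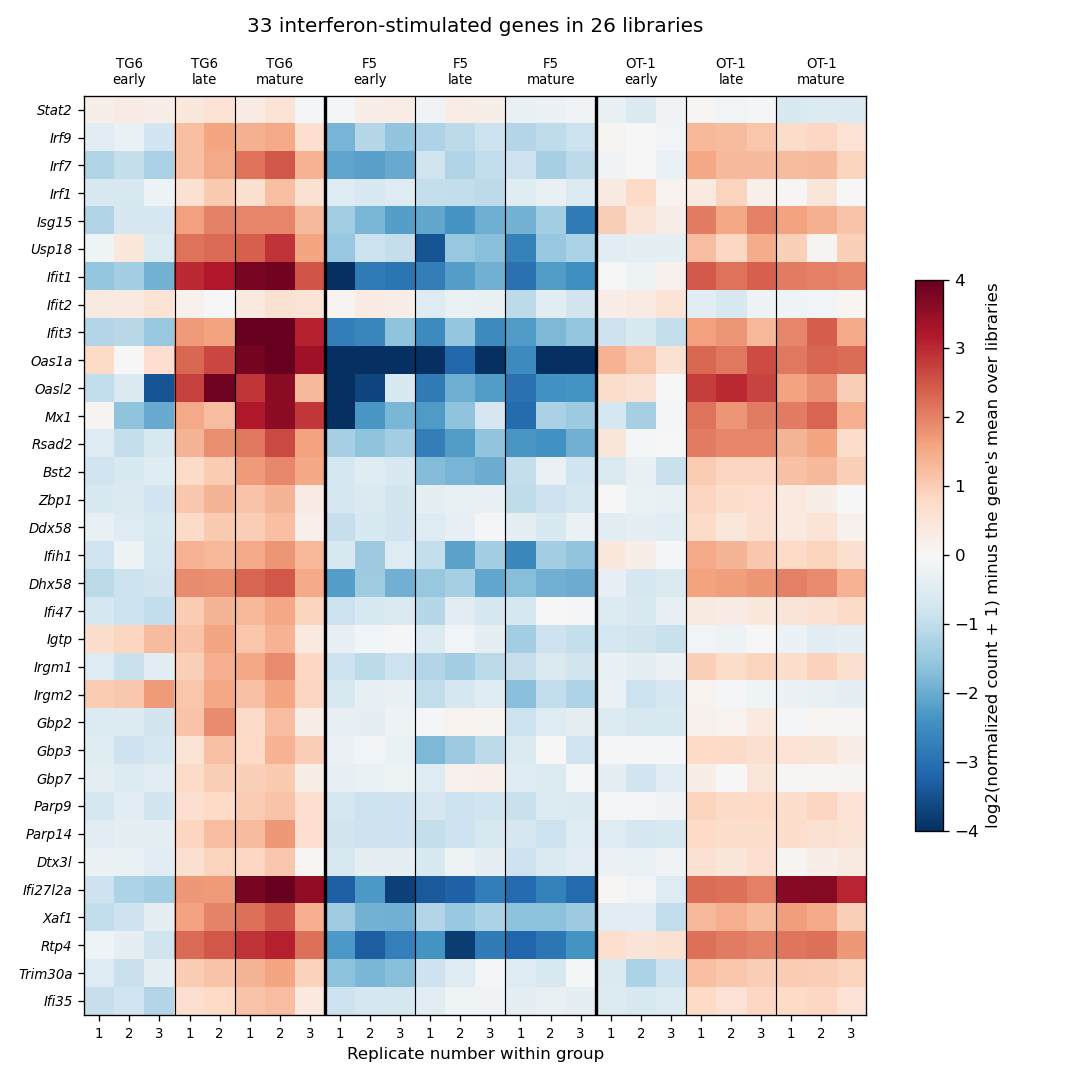
Heatmap of the 33 genes (rows) in 26 libraries (columns, numbered by replicate within a group), coloured by log2(normalized count + 1) minus the mean of each gene over libraries, with the scale ending at -4 and 4. TG6 and OT-1 turn from blue or pale to red between the early and the late stage, while the F5 columns stay blue or pale, and TG6 mature replicate 3 is paler than replicates 1 and 2.

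The first comparison was the step from early to late positive selection within each line. In TG6, 29 of the 33 genes rose and none fell, with a median log2 fold change of 1.87, against 12.1% of all genes tested that rose and 13.3% that fell. In OT-1, 29 rose and 1 fell (median 1.29), against 12.7% and 14% of all genes. In F5, 4 rose and 3 fell (median 0.03), against 12.7% and 14%, a share near that of all genes. This F5 median was 0 without F5 late replicate 2 and 0.142 without F5 late replicate 1. All these calls are from limma at a Benjamini-Hochberg adjusted p under 0.05 over all genes, and the median of all genes lay at 0 in TG6, 0.02 in OT-1 and 0.04 in F5.

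Of the 9 antiviral effectors, 8 rose in TG6 and 8 in OT-1. Ifit1, which binds viral RNA that lacks the normal cap methylation, went in TG6 from 36.62, 41.74 and 29.03 to 877 and 1024, a log2 fold change of 4.70 ± 0.38 (SE; limma adjusted p = 7.8e-09). In OT-1 Ifit1 went from 110.9, 95.39 and 123.2 to 610.7, 496.1 and 577.9 (2.35 ± 0.34, limma adjusted p = 3.2e-05). Every late library of these lines thus lay above every early one. In F5 Ifit1 went from 4.87, 14.51 and 13.59 to 15.32, 23.09 and 28.53, also without overlap but at a level below the early libraries of both other lines (1.04 ± 0.34, limma adjusted p = 0.027). The F5 call was lost without F5 early replicate 1 (adjusted p = 0.2), late replicate 2 (0.068) or late replicate 3 (0.12).

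Oasl2, an oligoadenylate synthetase-like protein, rose most in TG6, from 20.58, 27.7 and 2.88 to 286.5 and 634.1 (4.996 ± 0.87, limma adjusted p = 0.00014). In OT-1 it went from 69.13, 64.25 and 42.59 to 289.1, 339.1 and 278.3 (2.37 ± 0.77, limma adjusted p = 0.027), and in F5 from 0.81, 2.36 and 27.37 to 5.001, 10.14 and 8.18 (0.61 ± 0.77, limma adjusted p = 0.63). Its spread was wide, since a single early library differed by several-fold from its group in TG6 and in F5, and the OT-1 call did not survive 5 of the 6 fits without an OT-1 library (adjusted p up to 0.091). Ifit3, a partner of Ifit1, went from 22.76, 23.85 and 17.42 to 171.3 and 161.2 in TG6 (2.92 ± 0.39, limma adjusted p = 6.6e-06) and from 28.98, 34.14 and 26.62 to 165.6, 179 and 131.8 in OT-1 (2.37 ± 0.35, limma adjusted p = 3.8e-05). In F5 Ifit3 was at 6.82, 7.74 and 16.5 early and 8.17, 17.06 and 8.15 late. The near-identical neighbour Ifit3b may share its reads.

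Mx1 encodes a GTPase that blocks influenza viruses, and the allele of the C57BL/6 strain is known to yield no working protein. Its transcript led the OT-1 list, from 18.43, 11.7 and 29.43 to 140.7, 106.7 and 131.7 (2.69 ± 0.58, limma adjusted p = 0.0015). In TG6 it went from 33.33, 9.34 and 6.83 to 90.67 and 74.41 (2.56 ± 0.65, limma adjusted p = 0.0053; 0.055 without TG6 late replicate 1). In F5 it was at 0.98, 5.27 and 7.94 early and 5.57, 9.50 and 18.76 late. The remaining antiviral effectors Rsad2 (viperin), Bst2 (tetherin), Oas1a and Zbp1, a sensor of Z-form nucleic acid, rose in TG6 by 1.53 to 2.29 and in OT-1 by 0.93 to 1.83 on the log2 scale. The calls of Oas1a were lost with a pseudocount of 0.1 (adjusted p = 0.16 in TG6 and 0.3 in OT-1), and in OT-1 also without early or late replicate 3 (0.084 and 0.061).

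Ifit2 went the other way. This relative of Ifit1 was at 720.1, 767.5 and 886.7 in OT-1 early cells and at 442, 390.2 and 529 in late cells (-0.81 ± 0.14, limma adjusted p = 0.00022). In F5 it fell from 655.3, 755.1 and 719.6 to 419.6, 503.3 and 495.1 (-0.59 ± 0.14, limma adjusted p = 0.0033), and in TG6 it was at 775.6, 771.1 and 888.1 and then 688.8 and 609.6 (-0.32 ± 0.16, limma adjusted p = 0.15). Late libraries lay below early ones in all 3 lines. Ifit2 lies on chromosome 19 next to Ifit3, with 7111 bases between the genes in GENCODE vM21, and the neighbours moved in opposite directions in OT-1.

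All 3 RNA sensors rose in TG6 and in OT-1, by 1.40 to 2.77 and by 1.04 to 2.21 on the log2 scale. They are Ddx58 (RIG-I), Ifih1 (the sensor of long double-stranded RNA) and Dhx58, which tunes both. None was called in F5. Dhx58 was the clearest of them, at 77.33, 89.61 and 98.06 in TG6 early cells and 606.6 and 603.9 in late cells, against 35.11, 60.26 and 42.8 early and 56.72, 65.02 and 37.97 late in F5. Ddx58 was well expressed in F5 as well, at 831.3 to 1038 early and 1106 to 1499 late (0.46 ± 0.18, limma adjusted p = 0.066).

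Of the 4 signalling and transcription factors, Irf9 and Irf7 rose in TG6 and OT-1. Irf7, the factor that amplifies type I interferon production, went from 266.6, 318.1 and 247.6 to 1405 and 1740 in TG6 (2.50 ± 0.22, limma adjusted p = 3.2e-08) and from 557.3, 601.4 and 511.2 to 1785, 1494 and 1511 in OT-1 (1.52 ± 0.20, limma adjusted p = 1.1e-05). Irf7 was also one of the few members to rise in F5, from 141.8, 133.7 and 151.4 to 355.6, 265.3 and 310.8 (1.11 ± 0.20, limma adjusted p = 0.00023). Irf1 rose in TG6, from 1171, 1156 and 1573 to 2715 and 3715 (1.30 ± 0.22, limma adjusted p = 9.2e-05). In OT-1 it was already at 2311, 3150 and 1994 early and was at 2343, 3309 and 2070 late (0.05 ± 0.19, limma adjusted p = 0.89). Stat2 was called in no line, with log2 fold changes of 0.23 ± 0.16 in TG6, -0.04 ± 0.14 in F5 and 0.31 ± 0.14 in OT-1.

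Both genes of the ISG15 pathway rose in TG6 and OT-1. Isg15, a ubiquitin-like protein that is attached to other proteins, went from 77.19, 112.3 and 113.2 to 561.8 and 730.4 in TG6 (2.68 ± 0.33, limma adjusted p = 2.7e-06). In OT-1 it went from 354.7, 260.1 and 214 to 751.4, 528.6 and 730 (1.29 ± 0.30, limma adjusted p = 0.0027). In F5 Isg15 was at 68.2, 50.29 and 37.86 early and 41.87, 34.13 and 45.85 late, so the early and late libraries overlapped. Usp18, which removes Isg15 and restrains the type I receptor, rose by 2.31 ± 0.49 in TG6 and 1.57 ± 0.44 in OT-1, and its difference in F5 was -1.10 ± 0.44 (limma adjusted p = 0.069).

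The GTPases were more divided. Ifi47, Irgm1, Gbp2, Gbp3 and Gbp7 rose in TG6 (1.35 to 2.12) and these and Igtp rose in OT-1 (0.67 to 1.18). The OT-1 call of Igtp was lost without OT-1 early replicate 3 (adjusted p = 0.063) or late replicate 3 (0.052). In F5 none rose and Gbp3, a guanylate-binding protein, fell from 87.42, 96.06 and 85.26 to 29.19, 37.37 and 49.06 (-1.23 ± 0.22, limma adjusted p = 0.00025). Igtp and Irgm2 were already high in TG6 early cells, Igtp at 1881, 2083 and 2778 and Irgm2 at 672.2, 699 and 1087, and neither was called at this step there (0.41 ± 0.22 and 0.07 ± 0.24). The annotated spans of these 2 genes overlap on chromosome 11 on the same strand, so their reads may be partly shared, as may those of near-identical guanylate-binding proteins.

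The ADP-ribosylation genes Parp9, Parp14 and Dtx3l, of which Dtx3l and Parp9 form a complex and lie head to head on chromosome 16, rose together in TG6 (1.09 to 1.46) and OT-1 (0.80 to 1.35). None of the 3 was called in F5, where Parp9 was at 613.8, 558 and 563.2 early and 628.8, 561.4 and 584.9 late. Of the other 5 genes (Ifi27l2a, Xaf1, Rtp4, Trim30a and Ifi35), all rose in TG6 and OT-1. Trim30a, which restrains innate immune signalling, was the member that rose most in F5, from 402.3, 349.6 and 382.1 to 710.8, 866.8 and 1201 (1.26 ± 0.20, limma adjusted p = 5.4e-05), although its paralog Trim30d may share reads. Ifi35 was the fourth that rose in F5 (0.48 ± 0.16, limma adjusted p = 0.03), a call that was lost without any 1 of 5 of the 6 F5 libraries (adjusted p up to 0.11). Bst2 fell in F5, from 189, 223.4 and 203.8 to 91.91, 85.32 and 77.44 (-1.26 ± 0.17, limma adjusted p = 8.4e-06), whereas it rose from 179.1, 201.8 and 221.6 to 533.5 and 634 in TG6 (1.53 ± 0.19, limma adjusted p = 2.5e-06).

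Equal replicate numbers within a line were taken as the same mouse. With the mouse as a replicate block F5 counted 9 genes that rose and 6 that fell at this step, against 17.5% and 18.1% of all genes under the same block. F5 late cells also had lower Ccr7 than those of TG6 in replicates 2 and 3, at 7609, 2698 and 3615 against 7585 and 8519, while S1pr1 and Klf2, which rise as T cells mature, overlapped between F5 and TG6 late cells (S1pr1 at 612.4 to 1893 and 869.9 to 1431, Klf2 at 639.9 to 3936 and 743.1 to 744.9). The part of this in the F5 values was not tested.

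**Figure D3:**
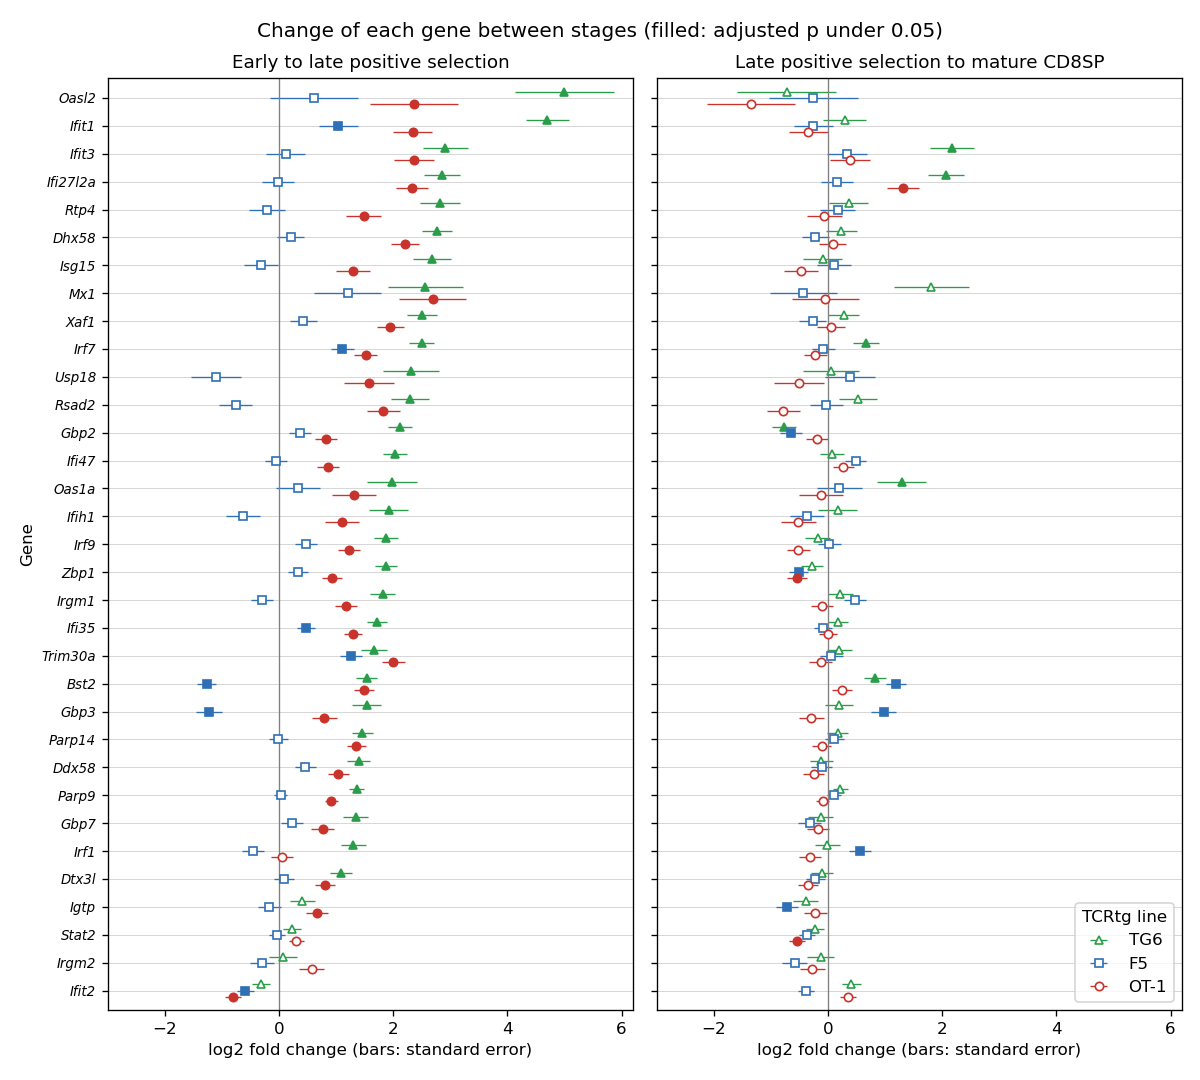
Fitted log2 fold change of each gene with its standard error, from early to late positive selection (left) and from late positive selection to mature CD8SP (right), in TG6, F5 and OT-1. Filled symbols have an adjusted p under 0.05. On the left, the TG6 and OT-1 symbols of 29 genes each are filled and lie above 0 while those of F5 lie around it, and on the right few symbols are filled.

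Whether the step differed between lines was tested as an interaction, which was added after the stage comparisons had been seen. The rise was smaller in F5 than in TG6 for 24 of the 33 genes and larger for none, against 2.08% of all genes called in either direction, with differences from -0.998 (Dtx3l) to -3.66 (Ifit1) on the log2 scale, and for 19 to 24 without 1 library. It was larger in OT-1 than in F5 for 12 genes and smaller for none, against 1.68% of all genes, and for 19 genes with the replicate block, against 4.45%. Between OT-1 and TG6, the rise was smaller in OT-1 for 4 genes (Ifit1, Gbp2, Irf1 and Ifi47) against 2.04% of all genes. This last count fell to 0 without TG6 late replicate 2, to 1 without TG6 early replicate 3 and to 2 without TG6 early replicate 2, TG6 late replicate 1 or OT-1 late replicate 1, and rose to 7 with only these groups in the fit.

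The second step, from late positive selection to mature CD8SP cells, brought few changes. In TG6, 5 of the 33 genes rose and 1 fell (median 0.17), against 14.5% and 7.79% of all genes. In F5, 3 rose and 3 fell (median -0.08), against 12.2% and 8.31%. In OT-1, 1 rose and 2 fell (median -0.19), against 14% and 10.4%. These shares were near or below those of all genes. Without 1 library the medians ran from -0.00167 to 0.376 in TG6, from -0.162 to -0.000738 in F5 and from -0.236 to -0.152 in OT-1.

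Ifi27l2a, a small interferon-induced protein, was the member that rose in both TG6 and OT-1. It went from 343.6 and 340.1 to 1452, 1664 and 1224 in TG6 (2.07 ± 0.31, limma adjusted p = 6.4e-05) and from 487.5, 477.3 and 417.7 to 1295, 1341 and 856.4 in OT-1 (1.31 ± 0.28, limma adjusted p = 0.0018). In F5 it was at 9.19, 10.04 and 14.27 late and 11.12, 15.12 and 11.04 in mature cells. It was the one gene to rise at both steps in TG6 and in OT-1.

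In TG6, Ifit3 went from 171.3 and 161.2 to 860.4, 1088 and 451.8 (2.17 ± 0.39, limma adjusted p = 0.00036), while its partner Ifit1 did not pass (0.29 ± 0.38, limma adjusted p = 0.64). Oas1a, Bst2 and Irf7 also rose, by 1.29 ± 0.44, 0.83 ± 0.19 and 0.66 ± 0.22 (limma adjusted p = 0.038, 0.0031 and 0.037). The calls of Oas1a and Irf7 were each lost in 4 of the 5 fits without a TG6 library of these stages, and in 6 and 5 of the other alternatives (adjusted p up to 0.39 and 0.29), among them for Oas1a the replicate block (adjusted p = 0.062). Gbp2, a guanylate-binding protein, fell from 1288 and 2144 to 997.3, 1359 and 687.5 (-0.77 ± 0.21, limma adjusted p = 0.012), with overlapping libraries. The TG6 count of 6 dropped to 3 without either TG6 late library, replicate 1 or replicate 2, and to 2 with only these groups in the fit. Without late replicate 1 the genes lost were Oas1a, Bst2 and Irf7, and without late replicate 2 they were Oas1a, Irf7 and Gbp2, of which Gbp2 also missed the threshold without mature replicate 3 (adjusted p = 0.071).

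In F5, Bst2 returned from its late values to 160.7, 257 and 177.6 (1.19 ± 0.17, limma adjusted p = 3e-05) and Gbp3 to 68.34, 104.7 and 58.78 (0.97 ± 0.22, limma adjusted p = 0.003). Both genes thus went down and up again in F5, and each step passed the test. Both steps share the F5 late libraries, so these tests are not independent. Irf1 rose from 922.9, 908.1 and 862.3 to 1280, 1450 and 1238 (0.56 ± 0.19, limma adjusted p = 0.047), and Igtp, Gbp2 and Zbp1 fell by 0.72, 0.65 and 0.52 on the log2 scale (limma adjusted p = 0.012, 0.017 and 0.037). The call of Irf1 was lost in each fit without 1 F5 library (adjusted p up to 0.16), that of Zbp1 in 5 of 6, that of Gbp2 in 3 and that of Igtp in 2. The count of 6 became 3 without F5 late replicate 2, late replicate 3 or mature replicate 1, 3 with only these groups in the fit, and 10 with the replicate block, where 29.3% of all genes were called. In OT-1, Stat2 fell from 1262, 1122 and 1193 to 794, 839.3 and 810 (-0.55 ± 0.14, limma adjusted p = 0.0065) and Zbp1 from 2380, 2128 and 2106 to 1712, 1544 and 1313 (-0.54 ± 0.17, limma adjusted p = 0.026). The Zbp1 call was lost in 4 of the 6 fits without an OT-1 library (adjusted p up to 0.12). The OT-1 count of 3 rose to 8 with the replicate block, where 35% of all genes were called, or with only these groups in the fit. None of the 33 genes was called between lines in this step by limma's interaction test, against 1.17% (OT-1 and TG6), 0.843% (OT-1 and F5) and 0.116% (F5 and TG6) of all genes. In each of these pairs 6 of the 33 had an unadjusted p under 0.05, as had 9.53%, 12.2% and 5.4% of all genes. With the replicate block 2, 4 and 1 of the 33 genes were called, against 3.31%, 3.87% and 0.214% of all genes.

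The lines were then compared within each stage. The 3 pairs of lines share libraries, so their results are given side by side and are not independent. For F5 and TG6 the differences were as follows. At early positive selection 11 of the 33 genes were lower in F5 than in TG6 and none higher (median log2 difference, F5 minus TG6, -0.74), against 3.35% and 3.12% of all genes. At late positive selection 31 were lower and none higher (median -2.34), against 3.23% and 1.75%. In mature CD8SP cells all 33 were lower (median -2.23), against 4.5% and 2.14%. Every TG6 library was above every F5 library for all 33 genes at the late and the mature stage, against 15.5% and 10.2% of all genes, with 17.8% and 6.65% in the other direction. At the early stage this held for 17 genes, against 14.2% of all genes, and every F5 library was above every TG6 library for 3, against 17%. These medians did not change with Oas1a set to its lower bound, and the early one was -0.455 without F5 early replicate 1. Leaving out any 1 library left 29 to 31 genes at the late stage and 32 or 33 at the mature stage. The macrophage and conventional dendritic cell markers were lowest in F5 at these stages, at 64.67 to 76.97 in late F5 cells against 92.87 to 96.58 in TG6 and 144.2 to 193.4 in OT-1. In mature cells they summed to 88.76 to 133.4 in F5, 129.2 to 242.5 in TG6 and 174.7 to 203.5 in OT-1, so F5 and TG6 overlapped there. The part of these cells in the differences between lines was not tested.

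In mature cells the ratio of the TG6 mean to the F5 mean had a median of 4.83 over the 33 genes. It exceeded 10 for 13 genes and was under 2 for 1, Stat2. Ifi27l2a had the highest ratio, 116, with values of 1452, 1664 and 1224 in TG6 against 11.12, 15.12 and 11.04 in F5 (F5 minus TG6 -6.75 ± 0.28, limma adjusted p = 2.3e-13). Oas1a, against a floor of 3 counts for the F5 group, was at least 80.7-fold higher in TG6. Ifit1 was at 1527, 1609 and 634.2 in TG6 and 13.14, 22.68 and 19.06 in F5, a ratio of 68.7 (-5.94 ± 0.34, limma adjusted p = 3.3e-11). Even the lowest TG6 library, replicate 3, exceeded the highest F5 library for each of these genes.

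Ratios above 10 were also found for Ifit3 (58.1), Oasl2 (50.3), Rtp4 (49.8), Mx1 (35.5), Rsad2 (22.4), Usp18 (17.4), Dhx58 (16.6), Xaf1 (13.2) and Isg15 (13), and for Ifih1 by a small margin. Rtp4, a chaperone of membrane receptors that also curbs RNA viruses, was at 1142, 1342 and 705.2 in TG6 and at 16.18, 19.84 and 28.09 in F5. These genes had F5 levels under 100 in every mature library. Genes with more F5 transcript had smaller ratios, among them Ddx58 (2.41), Irf1 (2.43), Dtx3l (2.5), Gbp7 (2.21) and Stat2 (1.44). Stat2 was at 1534, 1793 and 1176 in TG6 and 987.7, 1031 and 1108 in F5 (-0.51 ± 0.14, limma adjusted p = 0.028), a call lost in 4 of the fits without 1 library (adjusted p up to 0.16).

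At the late stage the ratio had a median of 5.06 and reached 59.2 for Oasl2, 42.6 for Ifit1 and at least 32.5 for Oas1a. The 2 genes that were not called there were Stat2 (-0.37 ± 0.16, limma adjusted p = 0.22) and Ifit2 (-0.46 ± 0.16, limma adjusted p = 0.11). At the early stage the ratio had a median of 1.68, and the largest were those of Oas1a, at least 8.19, and Rtp4, at 134.6, 119.3 and 88.06 in TG6 against 30.2, 14.51 and 22.33 in F5 (-2.34 ± 0.31, limma adjusted p = 2.9e-05). Ifi27l2a was at 57.4, 43.73 and 39.68 against 9.74, 20.31 and 6.80 (-1.97 ± 0.28, limma adjusted p = 7.8e-05). The difference between these lines was thus present before the late stage for 11 genes, while the guanylate-binding protein genes Gbp3, Gbp2 and Gbp7, whose F5 early libraries lay wholly above those of TG6, did not pass (0.47 ± 0.22, 0.30 ± 0.19 and 0.20 ± 0.20, limma adjusted p = 0.25, 0.42 and 0.63).

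**Figure D4:**
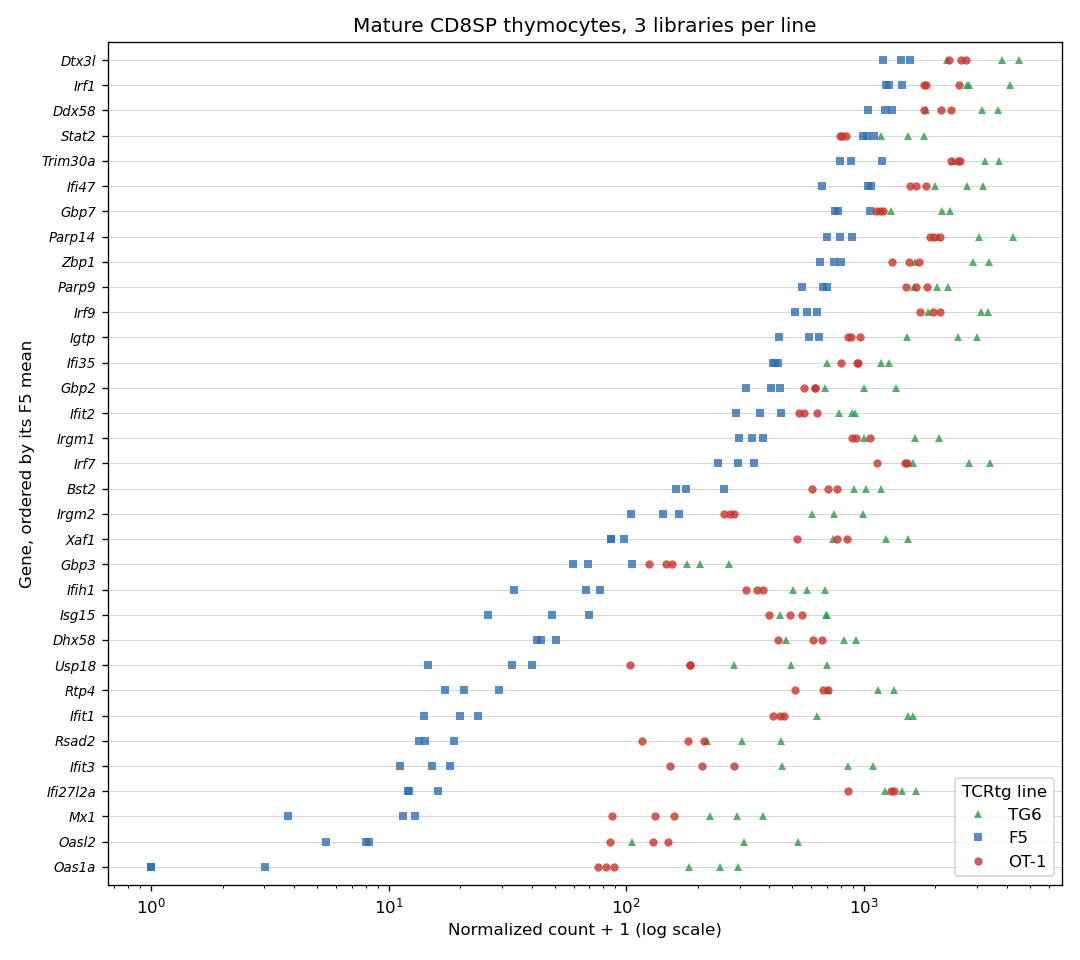
Normalized count + 1 (log axis) of each gene in the 3 mature CD8SP libraries of each line, with genes ordered by their F5 mean. Every TG6 point lies to the right of every F5 point of the same gene, and the gap widens toward the bottom, where F5 is low.

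In mature CD8SP cells Klf2, which drives thymic exit, and S1pr1, the exit receptor, differed by 0.20 ± 0.50 and -0.17 ± 0.43 between F5 and TG6 and were not called (limma adjusted p = 0.91 and 0.9). Il7r, the receptor chain for a survival cytokine, was lower in F5 (-3.55 ± 0.44, limma adjusted p = 6.1e-06).

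OT-1 was above F5 for 18 of the 33 genes at early positive selection and below for 2 (median OT-1 minus F5 0.72), against 7.81% and 4.88% of all genes. It was above for 28 and below for none at late positive selection (median 2.17), against 13.6% and 10.4%, and above for 31 and below for none in mature cells (median 1.51), against 13.3% and 10.1%. In mature cells every OT-1 library was above every F5 library for 32 genes and below for 1, Stat2, against 21.9% and 16.8% of all genes. These counts were 25 and 4 at the early stage, against 20.2% and 15.9%, and 29 and 0 at the late stage, against 19.7% and 16.9%. OT-1 cells also had more transcript of the exit genes at these stages, with S1pr1 at 1456 to 2303 early and 8896 to 10220 late against 65.04 to 276.7 and 612.4 to 1893 in F5, and 69.57 to 100.6 and 869.9 to 1431 in TG6. Klf2 was at 1818 to 2100 and 4916 to 6967 in OT-1 against 340.7 to 1101 and 639.9 to 3936 in F5, and 270.2 to 374.5 and 743.1 to 744.9 in TG6. Both genes were thus higher in OT-1 at the early and the late stage, and the part of this in the differences between OT-1 and the other lines was not tested. The OT-1 mean was 93.7 times the F5 mean for Ifi27l2a, 29.5 times for Rtp4 and at least 27.1 times for Oas1a in mature cells. At the late stage it was 41.3 times for Ifi27l2a, 38.9 times for Oasl2 and at least 29.7 times for Oas1a.

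At the early stage Oas1a was at least 12-fold higher in OT-1 than in F5, and Rtp4 was at 246.8, 218.9 and 234.7 against 30.2, 14.51 and 22.33 (3.38 ± 0.31, limma adjusted p = 1.2e-07). Oasl2 was called too, at 69.13, 64.25 and 42.59 against 0.81, 2.36 and 27.37 (3.39 ± 0.77, limma adjusted p = 0.0047). Stat2 and Igtp were lower in OT-1, Stat2 at 989.2, 812.3 and 1112 against 1190, 1455 and 1500 (-0.51 ± 0.14, limma adjusted p = 0.017) and Igtp at 695.5, 689.3 and 611.5 against 915.9, 1052 and 1082 (-0.61 ± 0.20, limma adjusted p = 0.046; 0.056 with the replicate block). The Igtp call was lost in each of the 6 fits without 1 library (adjusted p up to 0.15) and that of Stat2 in 3 (up to 0.12). F5 thus had the lowest mean of the 3 lines for 24 genes at the early, 31 at the late and 32 at the mature stage. The shares of all genes with the lowest mean in F5 were not counted, so these counts are only a description.

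Between OT-1 and TG6 the counts of called genes leaned in different directions by stage. They come from separate tests at each stage, and the interaction test of the early to late step called 4 genes for this pair. At early positive selection 11 of the 33 genes were higher in OT-1 and 3 lower (median OT-1 minus TG6 0.40), against 15.4% and 12.4% of all genes. At late positive selection none was higher and 6 were lower (median -0.28), against 9.34% and 6.21%. In mature CD8SP cells none was higher and 17 were lower (median -0.67), against 4.67% and 5.08%. TG6 had the highest mean of the 3 lines there for all 33 genes, and the share of all genes with this order was not counted. Every OT-1 library was above every TG6 library for 18 genes at the early stage and below for 4, against 25.1% and 21.6% of all genes. This was so for 3 and 15 genes at the late stage, against 27.8% and 24.2%, and for 0 and 18 in mature cells, against 10.7% and 11%.

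Among the genes higher in OT-1 early cells were Ifit1 at 110.9, 95.39 and 123.2 against 36.62, 41.74 and 29.03 (1.60 ± 0.34, limma adjusted p = 0.0014) and Isg15 at 354.7, 260.1 and 214 against 77.19, 112.3 and 113.2 (1.43 ± 0.30, limma adjusted p = 0.0011). Oasl2 differed by 2.13 ± 0.77 (limma adjusted p = 0.045; 0.25 without TG6 early replicate 3, and lost without any 1 of the OT-1 early libraries too). The libraries of these 3 genes did not overlap. OT-1 early cells were also the group with the most Siglech, and their macrophage and conventional dendritic cell markers summed to 149.4 to 344.2, against 75.74 to 128.1 in TG6 and 59.05 to 132.4 in F5 early cells. The 5 plasmacytoid dendritic cell markers together were not highest there, with sums of 767.1 to 802 in OT-1, 619.1 to 660.1 in TG6 and 685 to 887.2 in F5 early cells. The part of these cells in the early differences between OT-1 and the other lines was not tested. The lower genes were Irgm2 (-1.85 ± 0.22, limma adjusted p = 1.5e-06), Igtp (-1.74 ± 0.20, limma adjusted p = 9.1e-07) and Stat2 (-0.62 ± 0.14, limma adjusted p = 0.0021). The count of 14 was 8 without TG6 early replicate 3 and 9 without OT-1 early replicate 1.

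Igtp, Irgm2 and Stat2 were lower in OT-1 than in TG6 at all 3 stages. Igtp was at 1052, 989.4 and 1124 in OT-1 late cells against 2506 and 3457 in TG6 (-1.48 ± 0.22, limma adjusted p = 5.7e-05), and at 962.8, 860.6 and 886.4 against 2483, 2993 and 1516 in mature cells (-1.31 ± 0.20, limma adjusted p = 0.00012). At the late stage the differences of Irgm2 and Gbp2 were -1.35 ± 0.24 and -1.28 ± 0.21 (limma adjusted p = 0.00051 and 0.00019). The late difference of Stat2 (-0.54 ± 0.16, limma adjusted p = 0.02) was lost without TG6 late replicate 1 or 2 or OT-1 late replicate 2 (adjusted p = 0.062, 0.19 and 0.068). The late count of 6 was 3 without TG6 late replicate 2, where the median difference of the 33 genes was -0.106, and this median was -0.164 with the replicate block.

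In mature cells the largest differences were those of Ifit3, Usp18 and Oas1a. Ifit3 was at 206.7, 281.9 and 151.5 in OT-1 against 860.4, 1088 and 451.8 in TG6 (-1.86 ± 0.35, limma adjusted p = 0.0013). Usp18 was at 184.6, 102.4 and 184.8 against 494.8, 701.4 and 282.7 (-1.60 ± 0.44, limma adjusted p = 0.025), and Oas1a at 75.08, 87.69 and 80.8 against 247.4, 295.7 and 183.5 (-1.54 ± 0.39, limma adjusted p = 0.015). The libraries of none of the 3 genes overlapped. The calls of Usp18 and Oas1a were each lost in 3 of the 6 fits without 1 library (adjusted p up to 0.15 and 0.088). The count of 17 depended on single libraries: it was 26 without TG6 mature replicate 3, 5 and 4 without TG6 mature replicates 1 and 2, 8, 11 and 11 without OT-1 mature replicates 1, 2 and 3, and 2 with only these groups in the fit.

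TG6 mature replicate 3, the library with more Rag1 and Cd24a, was below both other TG6 mature libraries in 31 of the 33 genes. Its ratio to the mean of the other 2 had a median of 0.58 and ran from 0.251 to 1.04. Its mean level of 9.64 over the 33 genes was still above the highest OT-1 mature library (9.43) and every F5 library. Without it, TG6 and F5 differed in all 33 genes at the mature stage, as with it.

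Within groups, the 33 genes tended to vary together from library to library. After subtraction of the group mean, the correlation between 2 of the genes over the 26 libraries had a mean of 0.363 and a median of 0.379 over 528 pairs. The mean over all genes tested was 0.000846. This is a description of libraries that share a normalization and is not tested. The median deviation of the 33 genes was largest in TG6 mature replicates 3 and 2 (-0.516 and 0.383 on the log2 scale). The next in size was -0.198, in F5 late replicate 1. What the TG6 mature libraries add to the correlation was not tested. TG6 late replicate 2 was above replicate 1 in 27 of the 33 genes, and TG6 mature replicate 2 was above its group mean in all 33. F5 replicate 1 had the lowest mean level of its group at each stage (6.95, 6.96 and 6.94), and Irf1 was highest in OT-1 replicate 2 at each stage (3150, 3309 and 2519).

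The remaining genes of the pathway were looked at by lists. Of 9 interferon genes, none passed the filter: Ifnb1, Ifna1, Ifna2, Ifna4, Ifne, Ifnl2 and Ifnl3 were listed at 0 in every library, Ifnk reached at most 1.97 and Ifng, which activated T cells make, at most 9.09, in an OT-1 mature library.

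Of 6 receptor chains listed, 5 passed the filter on low values, and these and the kinases were expressed in all lines. Ifnar1 was at 1989 to 4447 and Ifnar2 at 521.9 to 1243 over all 26 libraries. Of the 5 receptor chains tested, only Ifnar2 was called between lines within a stage. It was higher in F5 than in TG6 at the early stage (0.43 ± 0.13, limma adjusted p = 0.043). For the same gene OT-1 exceeded TG6 at the early and the late stage (0.41 ± 0.13 and 0.55 ± 0.14, limma adjusted p = 0.02 and 0.011) and F5 at the late stage (0.58 ± 0.13, limma adjusted p = 0.0018). In mature cells the differences between F5 and TG6 were -0.02 ± 0.14 for Ifnar1, -0.12 ± 0.13 for Ifnar2, -0.07 ± 0.31 for Ifngr1 and -0.32 ± 0.50 for Ifngr2 on the log2 scale (limma adjusted p = 0.98, 0.7, 0.95 and 0.83). The genes that act between these receptors and the 33 genes are described only in part, and no statement on them as a group is made between lines. The kinases Jak1 and Tyk2 rose from early to late positive selection in every line, F5 included (Jak1 0.91 ± 0.12, limma adjusted p = 9.2e-06; Tyk2 0.69 ± 0.10, limma adjusted p = 1.3e-05).

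**Figure D5:**
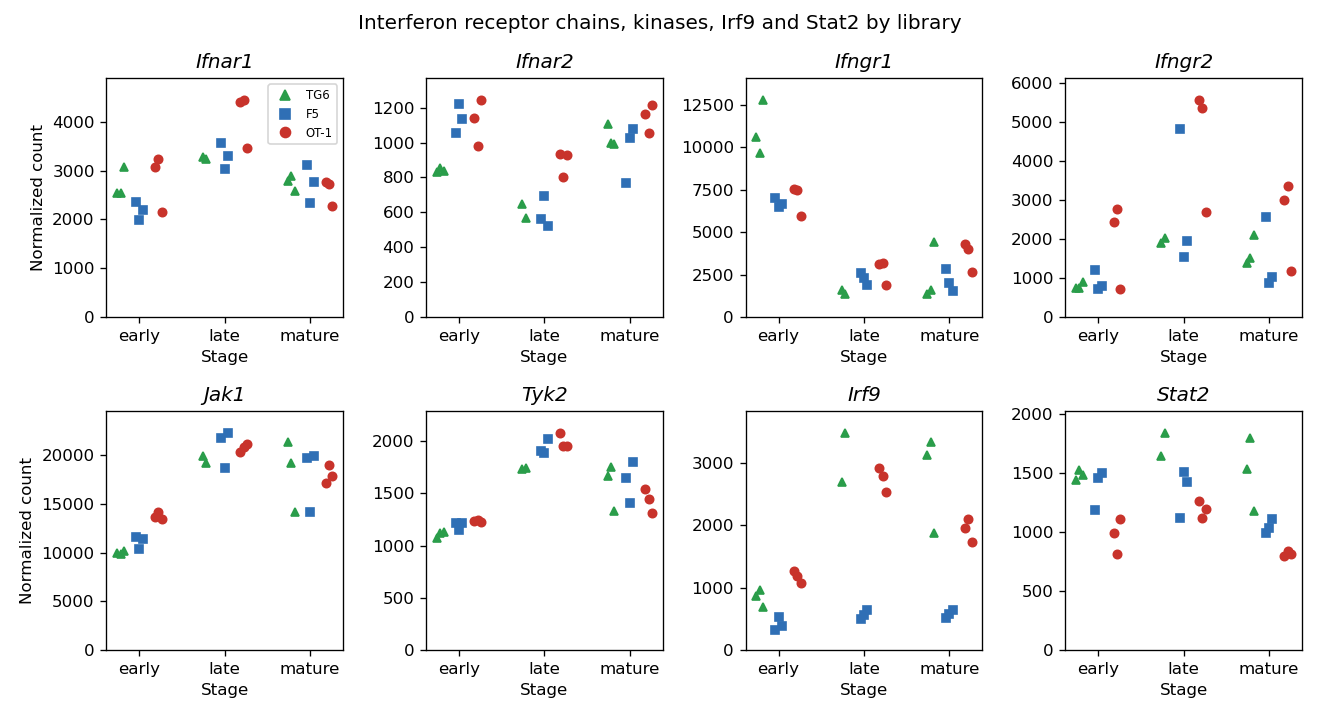
Normalized counts per library of the interferon receptor chains Ifnar1, Ifnar2, Ifngr1 and Ifngr2, the kinases Jak1 and Tyk2, and the partners Irf9 and Stat2, by stage and line, with each axis starting at 0. In the Irf9 panel the F5 points stay at 317.6 to 648.2 while TG6 and OT-1 rise to 1724 or more in all late and mature libraries.

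Of 11 regulators, 3 were lower in F5 than in TG6 in mature cells and none higher, against 4.5% and 2.14% of all genes. Socs3, a feedback inhibitor of cytokine receptors, was at 320.6, 367.2 and 394.9 in F5 and 1074, 1060 and 411.1 in TG6 (-1.11 ± 0.27, limma adjusted p = 0.011). Irf4, a factor induced by TCR signals, was lower by 2.33 ± 0.28 (limma adjusted p = 3.8e-06), and Irf2bp2, a corepressor, by 0.62 ± 0.13 (limma adjusted p = 0.0025). Socs1, the main feedback inhibitor of interferon receptors, was not called between these lines at any stage and fell from early to late positive selection in TG6 (-1.52 ± 0.33, limma adjusted p = 0.0012) and F5 (-0.93 ± 0.29, limma adjusted p = 0.021), against the direction of the 33 genes in TG6.

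A further list of 76 interferon-stimulated genes, of which 72 were tested, was counted in the same way. From early to late positive selection 49 rose and 3 fell in TG6 (median 1.33), against 12.1% and 13.3% of all genes. In OT-1 45 rose and 3 fell (median 1.104), against 12.7% and 14%. In F5 21 rose and 12 fell (median 0.12), against 12.7% and 14%, both above the shares of all genes. In mature cells 57 of the 72 were lower in F5 than in TG6 and none higher (median -1.30), against 4.5% and 2.14% of all genes. Those that rose in F5 included Nlrc5, the transactivator of MHC class I genes (2.93 ± 0.21 in F5, limma adjusted p = 5e-09; 5.02 ± 0.23 in TG6, limma adjusted p = 1.6e-12), and Samhd1, which depletes nucleotides (4.33 ± 0.34 in F5, limma adjusted p = 2.6e-08; 4.50 ± 0.38 in TG6, limma adjusted p = 1.6e-08). The genes of this list with the largest differences between F5 and TG6 in mature cells were Ifit3b (-6.63 ± 0.77, limma adjusted p = 2.4e-06), Iigp1, a further immunity-related GTPase (-6.30 ± 0.77, limma adjusted p = 5e-06), and Oasl1 (-5.84 ± 0.46, limma adjusted p = 4.7e-09).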

How the data were processed

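RNA-seq was done on sorted thymocytes of 3 TCRtg lines at 3 stages (26 libraries). The signal values deposited by the authors are counts that DESeq2 had scaled by its median-of-ratios size factors. They came from RSEM 1.2.31 after trimming (Trimmomatic 0.32) and Bowtie2 2.3.2 alignment on mm10, with versions from the submitters' processing notes. Only 42.4 to 44.3% of values above 0 came out as whole reads (tolerance 0.01), so no count test was run. More than 1 sorter and sequencer model was used, and which library belongs to which is not given in the sources used here.

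Values were analysed as log2(value + 1), so fold changes of low genes are understated. The 16372 genes with at least 10 in at least 2 libraries were fitted with limma (version 3.58.1, R 4.3.3), with 1 mean for each of 9 groups, 17 residual degrees of freedom and a trended prior variance. Each of the 21 comparisons had its own Benjamini-Hochberg adjustment over all genes, and genes were called under 0.05. Replicates are different mice, each sorted into the 3 populations, so equal replicate numbers within a line were taken as the same mouse, which served as the block. This is an assumption, and the table's TG6 late columns matched their samples by line, population and number, as their titles are spelled differently.

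The 33 genes and the lists were chosen with earlier results of these data known. Genes with values in every library are the 3 called genes with the largest change in each direction of a comparison and those that went against most members, and others were picked after their values were seen. As a check, deviations from group means correlated at 0.106 to 0.34 in the 9 same-number pairs of libraries of F5, 0.0189 to 0.178 in the 9 of OT-1 and 0.023 to 0.274 in the 7 of TG6, of which 9, 5 and 2 were over 0.1; the 4 with a TG6 late library were at most 0.0507. Promoters are from RefSeq, and gene positions from GENCODE vM21 on GRCm38. The fit was tested on simulated data. As alternatives, the pseudocount was set to 0.1 or 5, the filter was dropped or replaced by a mean of 50 or more, libraries were scaled to a common total or quantile-normalized, the prior trend was dropped, the compared groups were fitted alone, the mouse entered as a block (a random effect between lines), and each library was left out in turn. A few listed genes are left out of the text.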

Additional observations from a re-analysis of the deposited data

Results flagged for a closer look

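The change from early to late positive selection differed between lines by the interaction test, which was added after seeing the data, for 24 of the 33 genes between F5 and TG6, for 12 between OT-1 and F5, and for 4 between OT-1 and TG6. Of all genes tested, 2.08%, 1.68% and 2.04% were called in these pairs. The largest differences between F5 and TG6 were those of Ifit1 (-3.66 ± 0.51, SE, limma adjusted p = 0.00039), Usp18 (-3.42 ± 0.66, 0.0051) and Rsad2 (-3.06 ± 0.44, 0.00042), with F5 rising less. Between OT-1 and F5 they were those of Bst2 (2.75 ± 0.24, limma adjusted p = 2.3e-06), Usp18 (2.68 ± 0.62, 0.029) and Rsad2 (2.59 ± 0.42, 0.0017), with OT-1 rising more, and that of Usp18 did not survive 8 of the fits without 1 library (adjusted p up to 0.079). Between OT-1 and TG6 they were those of Ifit1 (-2.36 ± 0.51, limma adjusted p = 0.017), Gbp2 (-1.30 ± 0.28, 0.017) and Irf1 (-1.25 ± 0.29, 0.025), with TG6 rising more. These calls were lost in 3, 2 and 6 of the 11 fits without 1 library, and that of Irf1 also in 1 other alternative (limma adjusted p = 0.054). The groups of 2 or 3 libraries are too small for a test of single outlying samples.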

How the results depend on the processing

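None of the 312 calls of members over the comparisons turned its direction under the alternatives run, and members that were not called were not followed. The members' median turned sign in TG6 late to mature without TG6 late replicate 1 (0.171 to -0.00167). Of the calls, a mean of at least 50 and a pseudocount of 5 lost 0, the replicate block 5, a pseudocount of 0.1 lost 8, quantile normalization 13, no prior trend 14, total scaling 15, no filter 17, and fitting the compared groups alone 50; among the refits without 1 library, 1769 kept the call and 243 lost it. The counts of members called that changed by over 1.5 times were these. With the compared groups alone, TG6 late to mature went from 6 to 2, F5 late to mature from 6 to 3, OT-1 late to mature from 3 to 8, OT-1 against TG6 in mature cells from 17 to 2, and OT-1 against TG6 in the early to late change from 4 to 7. With the replicate block, F5 early to late went from 7 to 15, F5 late to mature from 6 to 10, OT-1 late to mature from 3 to 8, OT-1 against F5 in the early to late change from 12 to 19, and the late to mature interactions from 0 to 2 (OT-1 and TG6), 4 (OT-1 and F5) and 1 (F5 and TG6). OT-1 late to mature was 5 with a mean of at least 50 and 5 with total scaling, the interaction of OT-1 and F5 late to mature was 2 with either, and that of F5 and TG6 was 1 with a pseudocount of 5. The block lost the call of 5 members in all, among them Oas1a (TG6 late to mature) and Igtp (OT-1 against F5, early). The cause of these changes was not tested beyond the number of samples in each fit.

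Without 1 library the counts ran from 28 to 29 in TG6, 5 to 9 in F5 and 27 to 31 in OT-1 for early to late, and from 3 to 7, 3 to 8 and 2 to 4 for late to mature. For early, late and mature cells they ran from 8 to 12, 3 to 7 and 4 to 26 between OT-1 and TG6, from 15 to 17, 27 to 28 and 28 to 31 between OT-1 and F5, and from 9 to 11, 29 to 31 and 32 to 33 between F5 and TG6. For the interactions they ran from 0 to 3, 8 to 12 and 19 to 24 in the early to late change (OT-1 and TG6, OT-1 and F5, F5 and TG6) and from 0 to 2, 0 to 1 and 0 to 0 in the late to mature change. A group left with 1 library was assumed to vary like the others. With total scaling the median of all genes was -0.111 (TG6 late to mature), -0.112 and -0.13 (OT-1 minus TG6, early and late) and -0.129 (OT-1 minus F5, mature), where the members' medians were 0.06, 0.29, -0.42 and 1.37. Groups of 2 or 3 libraries, and values under 10 in F5, limit the precision.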
